A study of Mus musculus with 24 samples.

Results

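Apolipoprotein L genes were read in RNA of the terminal ileum through 10 probe sets, of 23099 probe sets that name a gene, that are annotated to Apol6, Apol7a, Apol7c, Apol8, Apol9a, Apol9b, Apol10a or Apol10b. Of these, 5 name 1 gene, namely Apol10a, Apol7c, Apol7a, Apol6 and Apol8, and 5 name several. Apol9a, Apol9b and Apol10b were therefore read only through shared probe sets, and each probe set is given on its own. The genes were chosen by measured values of these same arrays, with the differences between the groups known, so their values, differences and calls are given as a description, and none of them is read as a test.

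The 24 male C57BL/6OlaHsd mice, 8 weeks old and all on a diet with 10% of fat, were germ-free mice on long-chain β2→1-fructan, short-chain β2→1-fructan or water, and conventional mice on the same 3 treatments, with 4 mice in each of the 6 groups. Fructans were given by gavage at 10 mg per day for 5 days, and each mouse had its own array (Affymetrix Mouse Gene 1.1 ST). Germ-free mice came from a breeding colony and conventional mice from a commercial supplier. The long-chain fructan for germ-free mice was irradiated, which degrades some longer chains, and their short-chain fructan was filter-sterilised. The paper describes these steps for germ-free mice only, so the fructan given to germ-free and conventional mice differed in sterilisation too. The sterilisation and the fructan, the sterilisation and colonization in mice given a fructan, and the source of the mice and their colonization cannot be told apart. Mice on water received no fructan, so its sterilisation does not enter the comparison of germ-free with conventional mice on water.

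Apolipoproteins L are a family of lipid-binding proteins that, unlike the apolipoproteins of chylomicrons, act largely inside cells. In humans, APOL1 is the factor in serum that kills trypanosomes, and APOL3 is an interferon-induced protein that dissolves bacterial membranes in the cytosol. Mouse Apol genes have multiplied independently of the human ones. Apol9a and Apol9b are known in mice as interferon-stimulated genes with antiviral activity, and Apol7c is known from mouse dendritic cells, where it acts on phagosomes.

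In the RefSeq table of GRCm38.p6, 13 of 14 Apol genes lie on chromosome 15. The members other than Apol6 lie within 369 kb, from Apol7a at chr15:77388217-77399110 on the minus strand to Apol8 at chr15:77745109-77757062 on the minus strand. Between them lie Apol9a at chr15:77403789-77411080 (minus), Apol10a at chr15:77476953-77491069 (plus), Apol7c at chr15:77524852-77533335 (minus), Apol10b at chr15:77584154-77598542 (minus) and Apol9b at chr15:77729047-77736382 (plus). Apol6, at chr15:77045050-77057108, lies apart from the rest. Apol7b, Apol7e and Apol11b, which share probe sets with members, are genes of the same cluster. Apol11a and Apol7d have no annotated probe set here.

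RefSeq promoter windows, from 250 bases before to 50 bases after a start site, were at hand for 7 of the 8 members. The core of the interferon-stimulated response element, GAAANNGAAA on either strand, was in the windows of 5 of these 7 members, of 12 of 20 listed interferon-stimulated genes and of 1079 of 27025 genes in all (3.99%). Every match in the Apol windows lay on the opposite strand and so reads TTTCNNTTTC in the direction of the gene. The sequences around the matches are shown because Apol10a and Apol7c, lower in every germ-free mouse, and Apol9a and Apol9b, which overlapped, all hold one, in 30-base stretches of GRCm38.p6 read 5′ to 3′ in the direction of the gene, with the matches in capitals:
Apol10a (chr15:77476986-77477015, plus strand): gaaatttttcTTTCACTTTCatgcattggg
Apol10b (chr15:77596110-77596139, minus strand): gaaattttacTTTCATTTTCgtgcactgag
Apol11b (chr15:77643317-77643346, minus strand): gaatttttacTTTCACTTTCatgcactggg
Apol7c (chr15:77533348-77533377, minus strand): atggggcTTTCTCTTTCCTTTTCtgctttg
Apol7e (chr15:77698846-77698875, plus strand): ttggggcTTTCTCTTTCGTTTTCtgctttg
Apol9a (chr15:77411117-77411146, minus strand): gtgagacTTTCAGTTTCCATTTCccagttg
Apol9b (chr15:77729028-77729057, plus strand): gtgagacTTTCAGTTTCCATTTCccagttg

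Apol7c, Apol7e, Apol9a and Apol9b each held 2 overlapping matches, and Apol10a, Apol10b and Apol11b held 1. The stretches of Apol9a and Apol9b are identical letter for letter. Counted from the start site of the table, the first match began at base -59 in Apol9a, -37 in Apol9b, -51 in Apol10a and -55 in Apol7c, while that of Apol10b began at -4 and ran past the start. For both Apol9 genes the table holds a second start, from which the first match begins at -105 and -86. No match was in the windows of Apol7a, Apol7b and Apol8, which says only that these letters are not there. RefSeq's first base of the gene lies 94 bases before the start site used for Apol10a and 2417 bases before that used for Apol10b. Over their windows, 92.7% of the 300 bases of Apol9a stand in common order with Apol9b, and 82.7% of those of Apol7c with Apol7e. Apol7a with Apol7c gave 64.7% and Apol9a with Apol10a 66.7%. Windows of unrelated genes were not compared, so the level reached without likeness is not known here.

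Values are log2 expression values, in which a difference of 1 is a doubling, and they can be compared between mice but not between probe sets. The medians of the 24 arrays lay between 4.92 and 4.98, and arrays of 1 group correlated at 0.991 to 0.996. The mean of 4 marker genes of the ileum (Fabp6, Slc10a2, Slc51a and Slc51b) lay between 11.4 and 11.5 in each group. No other part of the gut was on these arrays, so this compares the groups only with each other. A difference is called where it is larger than 1.3-fold and its p in the limma fit of all probe sets, before adjustment, is below 0.01. The germ-free mouse on water numbered 1 stood apart in markers of the villus tip, with a mean of 9.65 over 8 genes against 8.62 to 8.82 in the other 3 mice of its group.

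**Figure D1:**
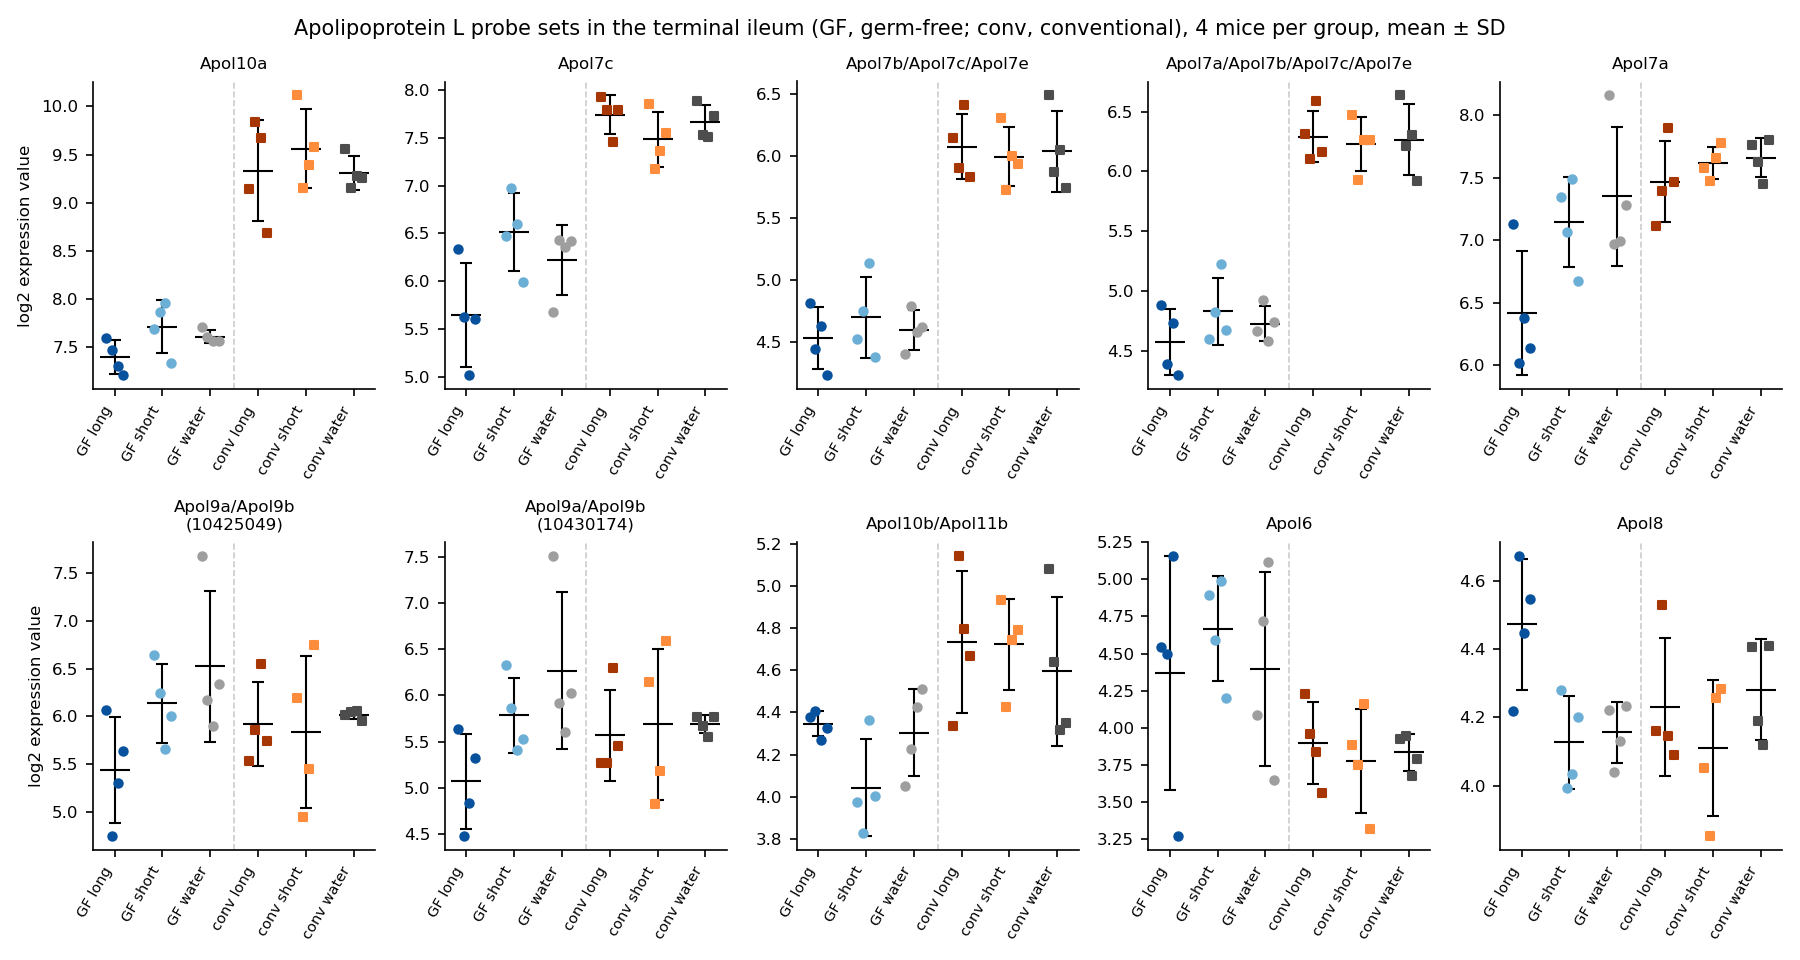
Log2 expression values of the 10 probe sets (vertical axes, each with its own range) in the 6 groups, with 1 point per mouse and bars for the mean ± SD of 4 mice. In Apol10a, Apol7c and both shared Apol7 probe sets every germ-free mouse lies below every conventional mouse, whereas the values of Apol9a/Apol9b overlap.

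Apol10a, Apol7c and the shared Apol7 probe sets were lower in all germ-free mice than in any conventional mouse, and both probe sets of Apol9a/Apol9b were not. On water, 4 of 10 probe sets were called lower in germ-free mice and 0 higher, where 5.68% and 2.69% of all probe sets were called lower and higher. On short-chain β2→1-fructan, 5 were called lower and 1 higher, where 4.43% and 4.11% of all were. On long-chain β2→1-fructan, 5 were called lower and 0 higher, where 5.97% and 3.22% of all were. Since the genes were chosen with these differences known, nothing is read from the counts. The median difference of the 10 probe sets between germ-free and conventional mice was -0.77 on long-chain fructan, -0.58 on short-chain fructan and -0.30 on water, beside medians of 0.03, 0.03 and 0.01 over all probe sets.

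Apol10a had the largest difference of the 10 probe sets on short-chain fructan and on water, and the second-largest after Apol7c on long-chain fructan. On long-chain fructan it read 7.60, 7.47, 7.30 and 7.20 in germ-free mice, against 9.14, 9.84, 9.67 and 8.68 in conventional mice. On short-chain fructan it read 7.68, 7.86, 7.96 and 7.33 in germ-free mice, against 10.11, 9.15, 9.39 and 9.58 in conventional mice. On water it read 7.71, 7.60, 7.56 and 7.56 in germ-free mice, against 9.55, 9.15, 9.28 and 9.25 in conventional mice. The highest of 12 germ-free mice, at 7.96, lay below the lowest of 12 conventional mice, at 8.68, a separation that 2.32% of all probe sets showed in this direction. The difference was -1.94 ± 0.19 on long-chain fructan, -1.85 ± 0.19 on short-chain fructan and -1.70 ± 0.19 on water (log2, ± SE), or 3.84-fold, 3.61-fold and 3.25-fold lower. Within either set of 3 groups, neighbours in the order of means overlapped.

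Apol7c showed the same separation with more spread among germ-free mice. It read 6.34, 5.62, 5.01 and 5.60 on long-chain fructan in germ-free mice, against 7.94, 7.79, 7.46 and 7.80 in conventional mice. On short-chain fructan the values were 6.47, 6.98, 6.60 and 5.99 in germ-free mice, against 7.86, 7.18, 7.36 and 7.55 in conventional mice. Water gave 5.68, 6.43, 6.35 and 6.43 in germ-free mice, against 7.89, 7.53, 7.51 and 7.73 in conventional mice. The SD over 12 mice was 0.55 in germ-free and 0.24 in conventional mice. Its difference was -2.10 ± 0.22 on long-chain fructan, -0.98 ± 0.22 on short-chain fructan and -1.44 ± 0.22 on water, which makes it 4.29-fold, 1.97-fold and 2.72-fold lower in germ-free mice.

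Both probe sets shared by Apol7b, Apol7c and Apol7e, of which 1 also names Apol7a, separated the mice in the same way. The one without Apol7a ranged over 4.23 to 5.13 in 12 germ-free mice, against 5.73 to 6.48 in 12 conventional mice. The one with Apol7a ranged over 4.30 to 5.23 in germ-free mice, against 5.92 to 6.63 in conventional mice. Neither pair of ranges overlapped. Over the 24 arrays both correlated with Apol10a at 0.96 and with Apol7c at 0.90, and over deviations from the group means with Apol10a at 0.61 and 0.51 and with Apol7c at 0.43 and 0.29. The differences on long-chain fructan, short-chain fructan and water were -1.54, -1.29 and -1.44 (SE 0.17) for the first and -1.72, -1.40 and -1.54 (SE 0.16) for the second. Which of the genes gave these signals cannot be told apart.

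Apol7a, read alone, had a smaller gap, with germ-free and conventional mice overlapping on each treatment. On long-chain fructan it read 7.13, 6.02, 6.38 and 6.14 in germ-free mice, against 7.11, 7.40, 7.90 and 7.47 in conventional mice. On short-chain fructan it read 7.35, 7.06, 7.49 and 6.67 in germ-free mice, against 7.57, 7.47, 7.65 and 7.77 in conventional mice. On water it read 8.16, 6.97, 6.99 and 7.28 in germ-free mice, against 7.76, 7.63, 7.45 and 7.80 in conventional mice. On water the overlap came through germ-free mouse 1, the highest of all 24. The difference was called on long-chain fructan, at -1.05 ± 0.23 or 2.07-fold lower, and not on short-chain fructan (-0.47 ± 0.23) or on water (-0.31 ± 0.23). Fitted on only the 8 arrays compared, that on short-chain fructan was called too. The difference on water was called, at -0.58, once germ-free mouse 1 was left out.

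Apol9a and Apol9b, the interferon-stimulated pair, had no such gap. Their 2 probe sets share all 6 of their accessions and moved together, with r = 0.98 over the 24 arrays and over deviations from the group means alike. The first (10425049) read 6.07, 4.75, 5.30 and 5.64 on long-chain fructan in germ-free mice, against 5.53, 5.86, 6.55 and 5.74 in conventional mice. On short-chain fructan it read 6.64, 6.24, 5.66 and 6.0 in germ-free mice, against 6.20, 4.95, 5.45 and 6.75 in conventional mice. Water gave 7.68, 6.17, 5.90 and 6.34 in germ-free mice, against 6.01, 6.05, 6.05 and 5.95 in conventional mice. Groups overlapped on each treatment, and the conventional mice on water lay closest together, with a range of 5.95 to 6.05. Differences of germ-free from conventional mice were -0.48 on long-chain fructan, 0.30 on short-chain fructan and 0.51 on water (SE 0.34). The second (10430174) gave -0.50, 0.10 and 0.58 (SE 0.35). None was called. Leaving out germ-free mouse 1, at 7.68, made the differences on water 0.12 and 0.16. On long-chain fructan they were -0.25 and -0.30 without germ-free mouse 2, and -0.27 and -0.26 without conventional mouse 3. On short-chain fructan the first ran from 0.01 without conventional mouse 2 to 0.61 without conventional mouse 4, and the second from -0.19 to 0.40 with 1 mouse left out.

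Apol10b, read with Apol11b, lay lower in germ-free mice by less than Apol10a. This probe set averaged 4.46 over all arrays, below the lowest array median of 4.92. Its values ran over 3.83 to 4.51 in germ-free mice, against 4.32 to 5.14 in conventional mice, and 6 of 12 germ-free mice lay below all conventional ones. The difference was -0.39 on long-chain fructan, -0.68 on short-chain fructan and -0.29 on water (SE 0.17). That on short-chain fructan was called, at 1.60-fold lower with no overlap of the groups. Of all probe sets, 7.72% showed this separation in the same direction. Germ-free mice on short-chain fructan read 3.98, 3.83, 4.37 and 4.0, against 4.93, 4.42, 4.74 and 4.79 in conventional mice.

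Apol6, which in mice has been described on the lipid droplets of adipocytes, was the only probe set called higher in germ-free mice. It averaged 4.16 over all arrays, below the lowest array median of 4.92, and no values of detection were used. On long-chain fructan it read 4.54, 4.50, 5.16 and 3.27 in germ-free mice, against 4.23, 3.96, 3.84 and 3.56 in conventional mice. On short-chain fructan it read 4.89, 4.59, 4.99 and 4.20 in germ-free mice, against 3.88, 3.75, 4.16 and 3.32 in conventional mice. On water it read 4.08, 4.72, 5.12 and 3.65 in germ-free mice, against 3.92, 3.95, 3.67 and 3.79 in conventional mice. Only the groups on short-chain fructan did not overlap, by 4.20 against 4.16, a separation that 11.8% of all probe sets showed in this direction. The difference was 0.89 ± 0.30 there, or 1.86-fold, and was called, against 0.47 ± 0.30 on long-chain fructan and 0.56 ± 0.30 on water. Germ-free mouse 4 on long-chain fructan was the lowest of all 24, and without it the difference there was 0.84 and was called. The call was lost without either germ-free mouse 1 or 3 or conventional mouse 2 or 4 on short-chain fructan, at differences of 0.74 to 0.88, and when unnamed probe sets joined the fit (0.89).

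Adipocyte markers differed between the same groups. All 5 of them had positive differences on each treatment, and 4 were called higher in germ-free mice on long-chain fructan, 4 on short-chain fructan and 3 on water. Cidec, a lipid droplet protein, differed by 1.90 on short-chain fructan (limma, Benjamini-Hochberg adjusted p = 2.76e-06), and Plin1, which coats lipid droplets, by 1.87 (adjusted p = 0.000156). The mean of the 5 markers ran over 6.43 to 7.96 on long-chain fructan in germ-free mice, against 5.52 to 6.57 in conventional mice. It ran over 7.34 to 7.84 on short-chain fructan in germ-free mice, against 5.35 to 5.87 in conventional mice. On water it ran over 6.12 to 7.98 in germ-free mice, against 5.98 to 6.07 in conventional mice. Apol6 followed this mean with r = 0.85 over 24 arrays and r = 0.80 over deviations from the group means. With the mean of 5 endothelium markers Apol6 gave -0.17 over 24 arrays and 0.66 over deviations. The likeness over deviations was therefore not particular to adipocyte markers. The part of these markers in the difference of Apol6 was not tested. No marker is at 0, since array values have no true zero.

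Apol8 was near 4 in all groups. It ranged over 3.99 to 4.67 in germ-free mice, against 3.85 to 4.53 in conventional mice, with differences of 0.24, 0.02 and -0.13 on long-chain fructan, short-chain fructan and water (SE 0.12), none of them called.

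**Figure D2:**
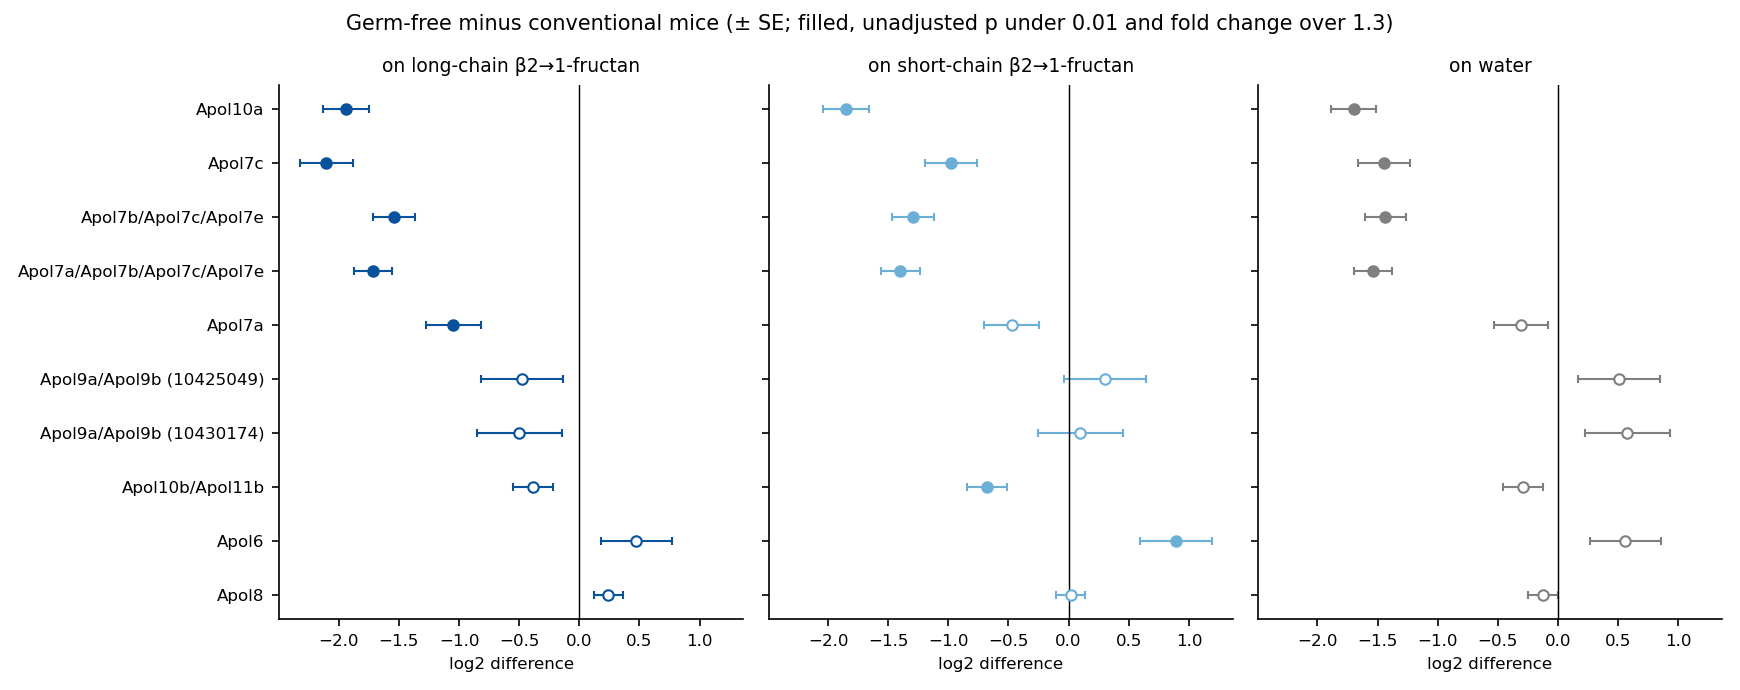
Log2 difference of germ-free from conventional mice (horizontal axis) for each probe set on long-chain fructan, short-chain fructan and water, with bars for ± SE and filled points for called differences. Apol10a, Apol7c and the shared Apol7 probe sets lie between -0.98 and -2.10, and Apol9a/Apol9b lies on both sides of 0.

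In conventional mice the members differed by at most 0.26 between treatments. No member probe set was called for short-chain fructan against water, long-chain fructan against water or long-chain against short-chain fructan, where 0.403%, 0.307% and 0.208% of all probe sets were called in either direction, and none had an unadjusted p under 0.05 in the limma fit, as 1184, 1278 and 822 of 23099 did. The largest of these differences was that of Apol7c between long-chain and short-chain fructan, 0.26 ± 0.22, followed by that of Apol10a after short-chain fructan, 0.25 ± 0.19, which was 0.07 without conventional mouse 1. Over the 10 probe sets, differences from water lay between -0.18 and 0.25 after short-chain fructan and between -0.19 and 0.14 after long-chain fructan. No call appeared under any of the alternative settings.

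In germ-free mice the long-chain fructan was accompanied by lower values of Apol7a and Apol9a/Apol9b. Against water, 3 of 10 probe sets were called lower and 0 higher, where 0.446% and 0.368% of all were. Both Apol9a/Apol9b probe sets, which moved together (r = 0.98), are among the 3, and nothing is read from the count. Apol7a differed by -0.93 ± 0.23 (1.91-fold lower), the first Apol9a/Apol9b probe set by -1.08 ± 0.34 (2.12-fold lower) and the second by -1.20 ± 0.35 (2.29-fold lower). From the values above, 3 of 4 germ-free mice on long-chain fructan lay below all 4 on water in Apol7a and in the first Apol9a/Apol9b probe set, and the groups overlapped in each. No member separated the 2 groups completely, as 1.68% of all probe sets did downwards and 1.56% upwards. Over all 23099 probe sets no Benjamini-Hochberg adjusted p was under 0.05 in this comparison, with 2012 at an unadjusted p under 0.05. Apol7c differed by -0.58 ± 0.22, more than the shared Apol7 probe sets (-0.07 and -0.15), and Apol8 by 0.32 ± 0.12, neither of them called.

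The Apol9a/Apol9b calls rested on few mice. Without germ-free mouse 1 on water, the differences of the 2 probe sets were -0.70 and -0.78 and were not called, while those of Apol7a (-0.66) and Apol7c (-0.76) were called. Without germ-free mouse 2 on long-chain fructan they were -0.86 and -1.0, also not called, which left Apol7a as the only call. Without germ-free mouse 3 on long-chain fructan the first was lost, at -1.04. Without germ-free mouse 1 on long-chain fructan, 5 probe sets were called, Apol7c and Apol8 being added.

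Short-chain fructan gave no call in germ-free mice, where 0.528% of all probe sets were called in either direction, and no member had an unadjusted p under 0.05, as 1269 of all did. The differences from water were -0.39 and -0.48 for the Apol9a/Apol9b probe sets, -0.21 for Apol7a and 0.29 for Apol7c. Without germ-free mouse 1 on water they were -0.0018 and -0.07 for Apol9a/Apol9b, 0.06 for Apol7a and 0.11 for Apol7c. Compared directly, long-chain with short-chain fructan, 2 of 10 probe sets were called lower in germ-free mice on long-chain fructan and 0 higher, where 0.632% and 0.758% of all were. Apol7c differed by -0.87 ± 0.22 (1.83-fold lower) and Apol7a by -0.72 ± 0.23 (1.65-fold lower). The groups overlapped in both, in Apol7c through germ-free mouse 1 on long-chain fructan (6.34) and mouse 4 on short-chain fructan (5.99). The Apol7a call was lost without mouse 1 or 3 on short-chain fructan or mouse 2 or 4 on long-chain fructan, at -0.59 to -0.66, and with array weights (-0.61). Apol9a/Apol9b differed by -0.70 and -0.71 and was not called, although the second was when only the 8 arrays compared were fitted. Apol8, at 0.35 ± 0.12, was called without mouse 1 of either group. The 2 fructans were sterilised in different ways for these mice.

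The change from water in germ-free mice minus that in conventional mice was called for no member. After long-chain fructan, where 0.532% of all probe sets were called in either direction, it was -1.07 ± 0.50 and -0.99 ± 0.48 for the Apol9a/Apol9b probe sets, -0.74 ± 0.32 for Apol7a and -0.66 ± 0.31 for Apol7c. In the limma fit 4 of the 10 probe sets had an unadjusted p under 0.05, as 851 of all 23099 did. Since the genes were chosen with the differences known, nothing is read from this count. Without germ-free mouse 1 on long-chain fructan, Apol7c (-0.89) and Apol7a (-0.98) were called. Without germ-free mouse 1 on water, Apol7c was called (-0.84), and the Apol9a/Apol9b values were -0.66 and -0.60 and that of Apol7a -0.47. After short-chain fructan, where 0.675% were called, the members lay between -0.48 and 0.47 and none had an unadjusted p under 0.05, as 1198 of all did.

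**Figure D3:**
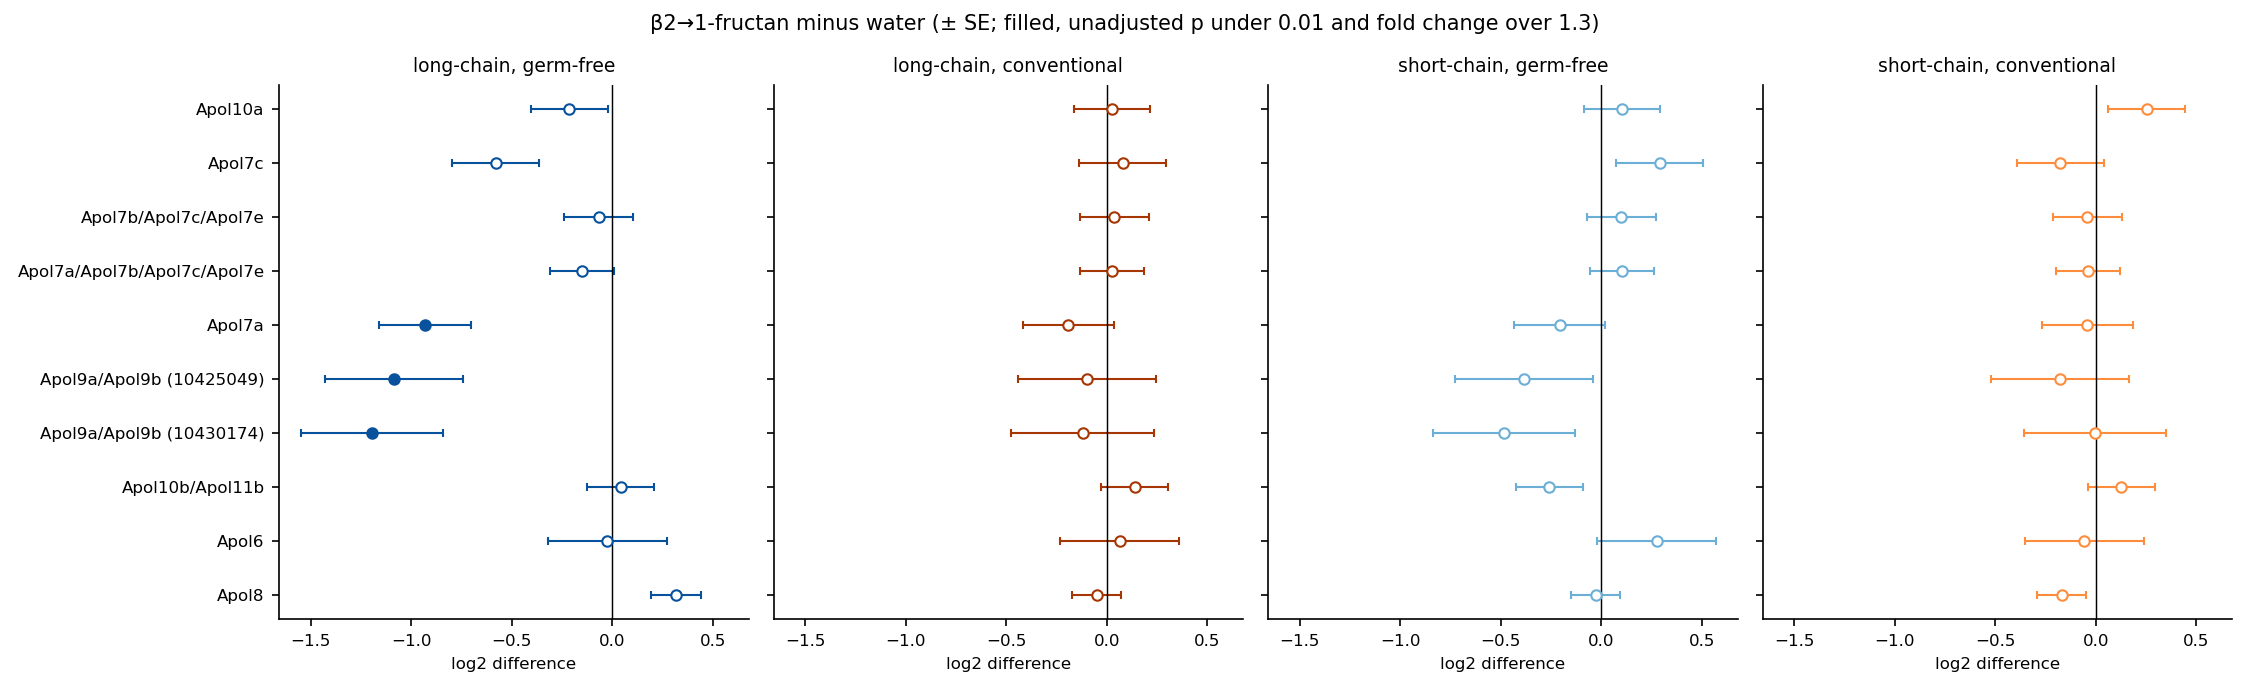
Log2 difference of fructan from water (horizontal axis) for each probe set, in germ-free and in conventional mice, with bars for ± SE and filled points for called differences. The filled points are Apol7a and both Apol9a/Apol9b probe sets in germ-free mice on long-chain fructan, at -0.93, -1.08 and -1.20.

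Genes of the villus tip moved with Apol7a and Apol9a/Apol9b. Over 24 arrays the mean of 8 villus tip genes correlated with Apol7a at r = 0.76 and with the 2 Apol9a/Apol9b probe sets at r = 0.60 and 0.62, and over deviations from the group means at r = 0.61, 0.58 and 0.58. It ran over 8.19 to 8.80 in germ-free mice on long-chain fructan, against 8.62 to 9.65 in germ-free mice on water, and the same 2 mice were at the ends in Apol9a/Apol9b. Germ-free mouse 1 on water was the highest of 24 in the villus tip genes, in Apol7a and in both Apol9a/Apol9b probe sets, and germ-free mouse 2 on long-chain fructan was the lowest of 24 in each. Of the 8 genes, 6 had negative differences after long-chain fructan and 2 were called lower, the nucleoside transporter Slc28a2 (-1.05) and the adenosine deaminase Ada (-0.78), with adjusted p of 0.38 and 0.42. Enterocyte markers had a median difference of -0.11. Over 24 arrays the mean of 6 enterocyte markers correlated with Apol7a at 0.41 and with Apol9a/Apol9b at 0.56 and 0.54. Over deviations these values were 0.67, 0.36 and 0.37, so the likeness of Apol7a was not particular to the villus tip. The part of these markers in the Apol values was not tested. In a piece of bulk tissue, fewer cells of a type and less RNA per cell cannot be told apart.

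**Figure D4:**
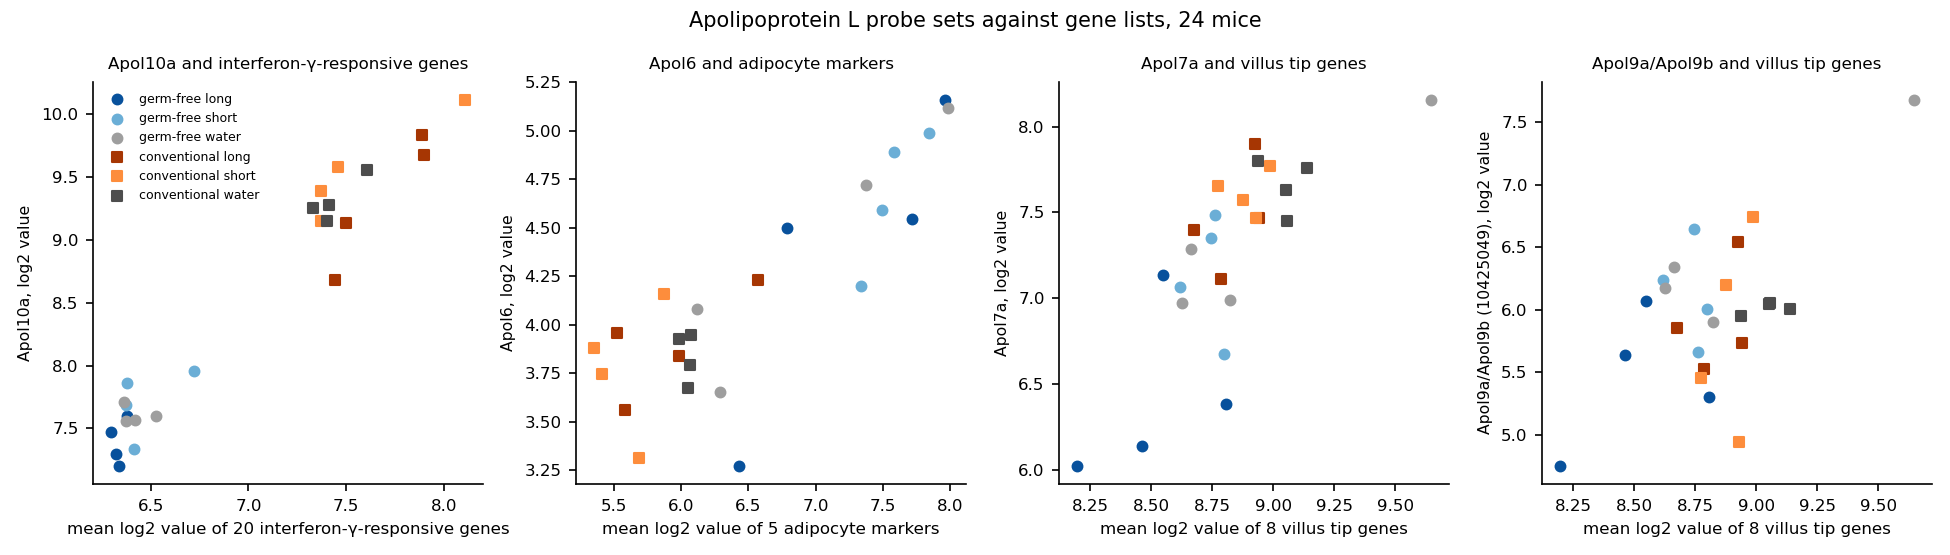
Log2 values of Apol10a, Apol6, Apol7a and the first Apol9a/Apol9b probe set (vertical axes) against the mean log2 value of a gene list (horizontal axes), with 1 point per mouse and colours for the 6 groups. Apol6 follows the adipocyte markers in and between groups, and 1 germ-free mouse on water stands at the top right of both villus tip panels.

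Interferon-stimulated genes, the pathway to which Apol9a and Apol9b are known to belong, were lower in germ-free mice as a group while Apol9a/Apol9b overlapped. Of 28 measured genes of a list of 30, 19 were called lower in germ-free mice on long-chain fructan, 18 on short-chain fructan and 15 on water, and 0 higher, with medians of -0.63, -0.54 and -0.44. This and the other gene lists were chosen with earlier results of these data known, so their counts and p-values are no independent test. On water the smallest p belonged to Ifit1, which binds foreign RNA (-2.34, limma adjusted p = 4.2e-06), Ifih1, a sensor of viral RNA (-0.42, adjusted p = 0.000439), Xaf1 (-0.95, adjusted p = 0.000564) and Zbp1, a sensor of left-handed nucleic acids (-1.16, adjusted p = 0.00234). Cmpk2 and Mx1, which are on the list too, differed by -0.03 and 0.25 and were not called. In conventional mice none of the 28 was called after either fructan, with 3 after short-chain and 1 after long-chain fructan at an unadjusted p under 0.05. In germ-free mice on long-chain fructan, 2 were called lower than on water, Cmpk2 (-0.48) and Parp14 (-0.41), both with an adjusted p of 0.42.

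Genes induced by interferon-γ were lower in germ-free mice as well. Of 20 measured genes, 18 were called on long-chain fructan, 19 on short-chain fructan and 16 on water, all lower, with medians of -1.41, -1.11 and -1.01. Those with the smallest p on water were Cd74, H2-Ab1, H2-Eb1 and H2-Aa, of antigen presentation by MHC class II, at -1.46 to -1.78, and their adjusted p were at most 8.38e-11. The interferons and receptors measured did not follow. Of 9, 1 was called, Ifnl2 on short-chain fructan (0.65 higher in germ-free mice), and Ifng differed by -0.06 on water.

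Markers of T cells, plasma cells, macrophages and dendritic cells were lower in germ-free mice too. Of 6 T cell markers, 6 were called lower in germ-free mice on long-chain fructan, 5 on short-chain fructan and 5 on water, with Cd3g at -2.41 and Cd3e at -1.96 on water. Their mean ran over 4.40 to 4.80 in the 12 germ-free mice, against 5.59 to 6.16 in the 12 conventional mice. Of 4 plasma cell markers 3 were called lower on each treatment, among them Jchain (-2.73 on water), and of 7 markers of macrophages and dendritic cells 5, 1 and 3 were called on long-chain fructan, short-chain fructan and water, Csf1r in each. The mean of the last 7 ran over 5.12 to 5.52 in germ-free mice, against 5.49 to 5.78 in conventional mice. Of 4 B cell markers, 0, 1 and 2 were called lower on long-chain fructan, short-chain fructan and water. Their mean ran over 4.25 to 5.25 in germ-free mice on long-chain fructan, against 4.67 to 4.91 in conventional mice, with germ-free mice 4 and 3 the highest of all 24. It correlated with Apol10a at 0.44 over the 24 arrays and at -0.04 over deviations. For the mean of the T cell markers these values were 0.96 and 0.58. Plasma cell markers gave 0.94 and 0.27, and markers of macrophages and dendritic cells 0.85 and 0.18. Other markers were lower on water too. Those of Paneth cells, neurons, endothelium and smooth muscle averaged 11.27, 5.55, 6.29 and 9.89 in germ-free mice, against 11.69, 6.26, 6.68 and 10.46 in conventional mice. Enterocyte and adipocyte markers were higher, at 12.02 and 6.94 against 11.95 and 6.05. Paneth cell markers correlated with Apol10a at 0.86 over the 24 arrays and -0.10 over deviations, and neuron markers at 0.81 and -0.22. The part of any of these cells in the lower values of Apol10a and Apol7c was not tested.

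**Figure D5:**
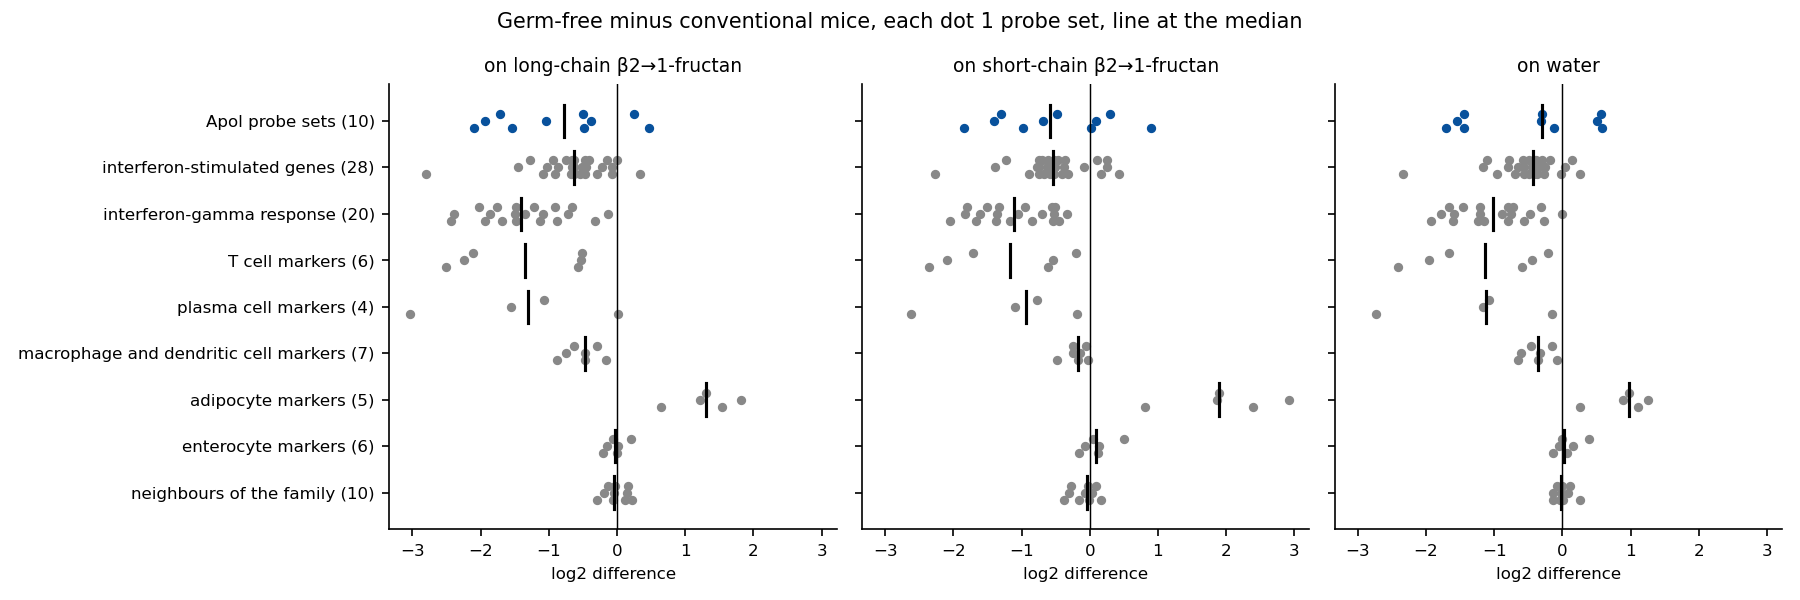
Log2 difference of germ-free from conventional mice (horizontal axis) for the Apol probe sets and for genes of 8 lists, on long-chain fructan, short-chain fructan and water, with 1 dot per probe set and a line at the median of each list. The Apol medians of -0.77, -0.58 and -0.30 stand beside those of the interferon-stimulated genes at -0.63, -0.54 and -0.44.

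The genes whose values were most like those of each member were taken by Pearson's r over the 24 arrays, with r over deviations from the group means beside it. For Apol10a these were Tap1, a peptide transporter for MHC class I (0.98 and 0.91), the transcription factor Irf8 (0.98 and 0.82) and Upp1 (0.98 and 0.79). For Apol7c they were Csf1r, the receptor of macrophage colony-stimulating factor (0.95 and 0.59), complement C2 (0.92 and 0.34) and H2-M3 (0.92 and 0.50). For both shared Apol7 probe sets they included Ccl5 and Cd3g, with r of 0.97 to 0.98 over all arrays and 0.69 to 0.73 over deviations. Next came Gzmb (0.97 and 0.71) for the one without Apol7a and H2-Ab1 (0.98 and 0.61) for the one with it. All points share the split into germ-free and conventional mice, which the second values leave out.

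Apol7a was most like Npc1l1, the cholesterol transporter of enterocytes (0.92 and 0.88), Abhd4 (0.91 and 0.81) and Slc12a7 (0.90 and 0.85). The first Apol9a/Apol9b probe set was most like the interferon-stimulated gene Cmpk2 (0.80 and 0.78), Mtmr4 (0.78 and 0.79) and Slc22a4 (0.77 and 0.71). The second was most like Cmpk2 (0.78 and 0.77), Capn9 (0.77 and 0.78) and Tmem41a (0.76 and 0.72). Apol6 was most like Fmo1 (0.90 and 0.85), Dhdh (0.90 and 0.84) and Acacb, an acetyl-CoA carboxylase (0.88 and 0.81). Apol10b/Apol11b was most like Cd226 (0.83 and 0.60), Sh2d6 (0.83 and 0.61) and Nlrc5 (0.83 and 0.61). Apol8 was most like Dlec1 (0.78 and 0.73), Tmem132b (0.76 and 0.68) and Mettl23 (0.75 and 0.65). Among the members, Apol10a correlated with Apol7c at 0.90 and with Apol6 at -0.51 over all arrays, and at 0.36 and 0.20 over deviations. Apol7a correlated with the Apol9a/Apol9b probe sets at 0.58 and 0.63, and at 0.68 and 0.70 over deviations. The mean of the 28 interferon-stimulated genes correlated with Apol9a/Apol9b at 0.23 and 0.27 over all arrays and at 0.62 in both over deviations, whereas Apol10a gave 0.92 and 0.59. With the mean of the 20 interferon-γ genes, Apol10a gave 0.98 and 0.81. There Apol9a/Apol9b gave -0.02 and 0.02 over all arrays, and 0.20 and 0.21 over deviations.

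The 10 genes that flank the family on chromosome 15, 5 on each side, were not called in any comparison of germ-free with conventional mice. Their differences lay between -0.38 (Foxred2 on short-chain fructan) and 0.26 (Mb on water), with medians of -0.04, -0.04 and -0.02 on long-chain fructan, short-chain fructan and water. Mb, which encodes myoglobin, overlaps the span of Apol6 in RefSeq and differed by -0.06, 0.09 and 0.26 on the same treatments. Of 11 apolipoproteins of plasma lipoproteins, 3 were called higher in germ-free mice on water, Apoc3 (0.75, limma adjusted p = 9.63e-05), Apoa4 (1.02) and Apoc1 (0.85), and 1 lower, Apod (-0.57). The mean of the 11 was 7.58 in germ-free and 7.38 in conventional mice on water. It was 7.53 and 7.30 on short-chain fructan, but 7.43 and 7.37 on long-chain fructan.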

How the data were processed

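Total RNA of the terminal ileum of 24 mice was hybridised to 1 array each, and groups and replicate numbers were taken from the labels. The log2 expression values were used as deposited: the authors made them by robust multiarray average (background correction, quantile normalization, summary of probes), and their methods name a remapped probe set definition while the rows carry the maker's numbers. Probe sets were named through the platform annotation, in which 21218 of 35556 name 1 gene, 1881 several and 12457 none. All 23099 that name a gene were fitted with limma 3.58.1 in R 4.3.3 (6 group means, eBayes with trend), and p-values were adjusted by Benjamini-Hochberg over all of them. The fit was tested on simulated data. The members and all gene lists were chosen with earlier results of these data known. Named were every member probe set, the 3 probe sets of other genes most like it, up to 4 genes of a list with the smallest p in the comparison described, and 5 flanking genes a side; others were chosen after their values were seen (Cmpk2, Mx1, Ifng, Plin1 and the plasma apolipoproteins). Nothing shows that scan dates or slides were balanced, and no values of detection were used. Mice are the replicates, their number limits the precision, and same-numbered mice were not paired (correlation of deviations -0.139 to 0.165). Alternatives were a common prior, intensity-based moderation, only the arrays compared, cyclic loess, no dim probe sets, 1 probe set per gene, all probe sets, array weights, a replicate block and leaving out each mouse.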

Additional observations from a re-analysis of the deposited data

Results flagged for a closer look

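Of 60 sets of 4 mice (10 probe sets in 6 groups), 2 held a mouse whose gap to the next was more than 0.829 of the range of its group. Chance alone flags about 1 in 20 sets, or 3 here. Apol7c in germ-free mouse 1 on water was the lowest of its group at 5.68, with the other 3 mice at 6.35 to 6.43. Apol8 in conventional mouse 2 on long-chain fructan was the highest of its group at 4.53, with the other 3 at 4.09 to 4.16.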

How the results depend on the processing

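The 20 called differences of members were computed under 331 alternatives in all, of which 316 kept the call, 15 lost it and 0 changed sign. With 1 probe set per gene, which by its construction leaves 5 of the 10 probe sets, 2, 3 and 3 members were called in germ-free against conventional mice on water, short-chain and long-chain fructan, and 1 in germ-free mice on long-chain fructan against water. With array weights, 1 was called in germ-free mice on long-chain against short-chain fructan, and the cause was not tested. Leaving out 1 mouse at a time, the calls ran from 1 to 5 in germ-free mice on long-chain fructan against water, from 1 to 3 on long-chain against short-chain fructan, and from 0 to 2 for the change from water after long-chain fructan in germ-free minus that in conventional mice. Interferon-stimulated genes called in germ-free mice on long-chain fructan against water numbered 2, against 1 with a common prior or cyclic loess, 0 with all probe sets or array weights, and 0 to 3 with 1 mouse left out. They numbered 0 to 1 with 1 mouse left out for either fructan in conventional mice and for short-chain fructan in germ-free mice. With the replicate block, the calls of members were 4, 6 and 5 in germ-free against conventional mice on water, short-chain and long-chain fructan and 3 and 2 in germ-free mice on long-chain fructan against water and short-chain fructan, so that no count changed. Of 60 same-numbered pairs, 4 correlated over 0.1, and 6 of 24 arrays lay closest to an array of their own number.

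With 4 mice a group, standard errors of member differences were 0.12 to 0.35 between groups, and a call needed a larger difference: -0.58 ± 0.22 (Apol7c) and -0.71 ± 0.35 (Apol9a/Apol9b) in germ-free mice were not called. Shared probe sets do not tell Apol9a from Apol9b, the Apol7 genes from each other or Apol10b from Apol11b.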
